A study of Mus musculus with 19 samples.

Results

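The genes described are those of the nucleus that encode the mitochondrial machinery of oxidative phosphorylation. They were taken by symbol, ignoring letter case: every gene that begins with Nduf, Uqcr, Atp5 or Cox4 to Cox8, together with Sdha, Sdhb, Sdhc, Sdhd, Cyc1 and Cycs. The rule found 87 of the 6842 genes listed in any of the 3 deposited tables, and 74 of them stood in all 3. The libraries came from female C57Bl/6 mice, wild type by genotype and 85 days of age. All had EAE (experimental autoimmune encephalomyelitis), used as a model of multiple sclerosis, which was induced with 25 µg of MOG35-55 peptide in CFA. Before that, each mouse had been given 1 of a pair of lentiviruses by the intracranial route, named shScrmbl and shXbp1 in the labels (pLenti-Gfap-GFP-shScramble and pLenti-Gfap-GFP-shXbp1), so the controls carry a virus, GFP and a hairpin too. The Gfap promoter in their names is active mainly in astrocytes, so microglia and monocytes are not the cells the hairpin was made for. Brain and spinal cord were dissociated mouse by mouse. Cells labelled astrocytes (4 libraries with shScrmbl and 4 with shXbp1), microglia (4 with shScrmbl, 3 with shXbp1) and monocytes (2 with each virus) were sorted by flow cytometry and counted by 3′ digital gene expression. The design text names the transcriptional programs of these cells under astrocyte Xbp1 as the question. For the respiratory genes that means a comparison of shXbp1 with shScrmbl within each cell type and a description of how the machinery differs between the cell types.

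Oxidative phosphorylation passes electrons from NADH and succinate to oxygen and uses the energy to make ATP. Complex I (the Nduf genes) oxidises NADH and complex II (the Sdh genes) oxidises succinate, complex III (Uqcr genes and Cyc1) hands the electrons to the carrier cytochrome c (Cycs), and complex IV (Cox genes and Ndufa4) gives them to oxygen. Complex V, the ATP synthase (Atp5 genes), makes ATP from the proton gradient that complexes I, III and IV build. The subunits must be made in matched amounts, and complexes I, III, IV and V also hold subunits encoded by mitochondrial DNA. The 13 mitochondrially encoded genes were looked up by symbol, and 0 were among the genes tested in any table. In the 3 tables the members fell into 36 subunits of complex I, 7 complex I assembly factors (including Atp5sl, which is named for ATP synthase but acts in complex I assembly), 4 genes of complex II, 9 of complex III, 14 of complex IV, 15 of complex V, Cycs, and Cox7a2l, a factor that helps complexes III and IV join into supercomplexes.

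The 19 libraries held 10039 to 302003 counts, so depth was low and uneven. Astrocyte libraries held 32842 to 302003 counts, microglia libraries 10039 to 122002 and monocyte libraries 15654 to 112676. In libraries labelled astrocyte, 13 of 15 markers of ependyma and choroid plexus (the ventricle lining and the epithelium that makes cerebrospinal fluid) were listed, and together they took 22.6% to 30.8% of counts under shScrmbl and 16.9% to 25.9% under shXbp1. The 17 listed astrocyte markers took 0.454% to 0.750% and 0.521% to 0.660%, and Gfap was among the 3 not listed. Those libraries are therefore called by their label throughout. In microglia libraries the 4 listed ependyma and choroid plexus markers took 1.75% to 6.92% under shScrmbl and 3.65% to 5.28% under shXbp1. The 20 microglia markers took 3.14% to 4.26% and 2.70% to 3.71%, less than the former in every shXbp1 library and in shScrmbl replicate 1. The names microglia and monocytes are labels too. Xbp1, the targeted gene, had 1, 17, 3 and 1 counts in the shScrmbl and 2, 11, 3 and 12 counts in the shXbp1 libraries labelled astrocyte. Those signals were 20.1 to 79.9 and 31.2 to 79.7, so the groups overlapped and the knockdown was not detectable at this depth.

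The members were abundant transcripts in every cell type. The authors' values are a signal per gene and library, scaled within each table, so levels are compared between genes of a table but not between tables. Because this assay counts 1 end of each transcript, no division by gene length is needed. In libraries labelled astrocyte, all 87 members were listed and 82 had a mean signal above the median gene, with 57 among the 10% of genes with the highest mean. In microglia 58 of 74 listed members lay above the median and 18 in the top 10%, and in monocytes 64 of 77 and 23. The same 10 members were absent from both myeloid tables: Atp5sl, Cox6b2, Cox7a1, Cox8b, Ndufab1, Ndufaf1, Ndufaf4, Ndufaf5, Ndufs5 and Ndufv1. Cyc1, Ndufaf2 and Ndufb6 were also absent from the microglia table. How the deposited tables were filtered is not given in the sources used here, so a gene missing from a table is not a measured 0.

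Atp5l, which encodes the g subunit in the membrane part of ATP synthase, was the most abundant member in each table. Its signal was 2450.3 ± 657 (SD, n = 4) under shScrmbl and 2604 ± 515 (n = 4) under shXbp1 in libraries labelled astrocyte. In microglia it was 1403 ± 222 (n = 4) and 1204 ± 95 (n = 3), and in monocytes 1380 ± 84.1 (n = 2) and 1485 ± 742 (n = 2). Within complex I the accessory subunit Ndufa2 led in every table. Complex II was led by Sdhc in the astrocyte table and by Sdhb, the iron-sulfur subunit, in both myeloid tables. Complex III was led by Uqcrq in the astrocyte table and by Uqcrh in the myeloid tables, and complex IV by Cox4i1 in astrocyte and microglia tables and by Cox6c in the monocyte table. At the low end stood complex I assembly factors and single subunits: Ndufaf1 with a mean signal of 18.1 in the astrocyte table, Uqcrfs1, the Rieske protein of complex III, with 44.6 in microglia, and Ndufaf3 with 36.5 in monocytes. At least 1 library was at 0 for 7 of 87 members in the astrocyte table, 23 of 74 in microglia and 13 of 77 in monocytes.

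Respiratory transcripts took a larger share of the RNA in libraries labelled astrocyte than in either myeloid cell type. This was measured as the share of counts that the 74 shared members held among the 2605 genes listed in all 3 tables, leaving out Ttr, a choroid plexus transcript that alone took 14.2% to 26.7% of counts where the label was astrocyte. Under shScrmbl the share was 9.68%, 4.90%, 8.99% and 6.74% in replicates 1 to 4 of the libraries labelled astrocyte, and under shXbp1 it was 6.33%, 8.45%, 6.60% and 8.83%. It was 2.12% to 2.54% in the 7 microglia libraries and 2.14% to 2.95% in the 4 monocyte libraries. Every astrocyte library lay above every myeloid one, the virus groups overlapped in each cell type, and microglia and monocytes overlapped each other. Counting Ttr in the total left the same order, with astrocyte libraries at 3.76% to 6.55%, microglia at 2.08% to 2.41% and monocytes at 2.13% to 2.94%. The lowest astrocyte library, shScrmbl replicate 2, was also the deepest and held most microglia marker RNA, 0.903% of counts, where the other 7 held 0.220% to 0.387%. The ependyma and choroid plexus markers moved with this difference: their share ran from 16.9% to 30.8% where the label was astrocyte, from 1.75% to 6.92% for microglia and from 0.361% to 1.02% for monocytes. Their part in the result was not tested.

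**Figure D1:**
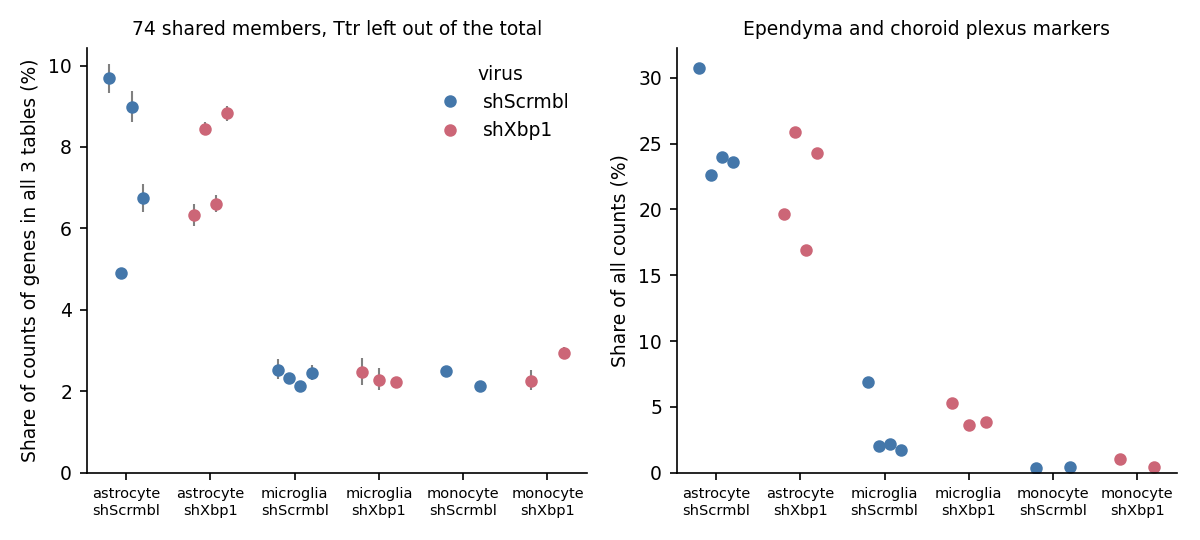
Left, the share of counts (%) of genes listed in all 3 tables, without Ttr, that the 74 shared respiratory members held, 1 point per library with its exact 95% binomial interval; right, the share of all counts (%) held by ependyma and choroid plexus markers. The astrocyte libraries, at 4.90% to 9.68%, lie above all microglia and monocyte libraries on the left and are also highest on the right.

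The higher share came from many members and from most complexes. With counts scaled to a common total over the 2605 shared genes (CPM), 40 of the 74 members were higher in every astrocyte library than in every microglia library, where 4.99% of all shared genes were, and 0 were lower, where 4.15% were. Against monocytes 43 members were higher, beside 9.75% of all genes, and 0 lower, beside 7.49%. All genes here are not matched to the members on abundance, and low genes with counts near 0 seldom separate. The 40 members were 13 of 32 complex I subunits, 1 of 4 complex II genes (Sdhc), 5 of 8 complex III genes, 8 of 11 complex IV genes, 12 of 15 complex V genes and Cycs. The 43 against monocytes were 18, 1, 3, 9 and 11 of the same complexes and 1 assembly factor. Between microglia and monocytes 1 member, Cox4i1, was higher in microglia, beside 2.26% of all genes, and 0 were lower, beside 1.88%.

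Cox4i1, the regulatory subunit 4 of complex IV, had 1738 to 4259 CPM (median 3083) in the 8 astrocyte libraries, 765 to 1528 (median 1013) in microglia and 496 to 742 (median 640) in monocytes. Atp5g1, a gene for the rotating ring of ATP synthase, had 2567 to 5261 CPM (median 3531) in astrocyte libraries, 405 to 668 (median 543) in microglia and 424 to 626 (median 589) in monocytes. For both genes the astrocyte libraries stood apart from the myeloid ones. Cox7a2l had 355 to 721 CPM (median 467) in astrocyte libraries, 309 to 765 (median 446) in microglia and 495 to 1275 (median 583) in monocytes, so its level overlapped in all 3. Sdhb overlapped too, with 212 to 692 CPM in astrocyte, 184 to 433 in microglia and 70.9 to 379 in monocyte libraries.

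Complexes I and V took the largest shares of the set in each cell type, and the shares of complexes II, IV and V each separated 1 pair of cell types. Of the counts of the 74 shared members, complex I took 27.9% ± 1.06 (SD, n = 8) in libraries labelled astrocyte, 28.5% ± 2.79 (n = 7) in microglia and 26.9% ± 0.609 (n = 4) in monocytes. Complex V took 34.4% ± 0.994, 32.1% ± 1.31 and 36.0% ± 1.51 in the same order. Complex I overlapped between all 3, while for complex V the microglia range of 30.2% to 33.8% lay below the monocyte range of 34.3% to 37.6%. Complex IV took 21.6% ± 0.652, 20.2% ± 1.26 and 17.7% ± 2.30, and complex III 11.1% ± 0.577, 10.8% ± 1.48 and 10.01% ± 0.731. For complex IV the astrocyte range of 20.6% to 22.7% lay above the monocyte range of 14.4% to 19.7%. Complex II, the smallest with 4 genes, took 1.96% ± 0.439 in astrocyte libraries, 3.25% ± 0.444 in microglia and 2.82% ± 0.619 in monocytes. Its astrocyte range of 1.28% to 2.59% lay below the microglia range of 2.65% to 3.90%, and the monocyte range of 2.19% to 3.56% overlapped both. Across the 74 members, the mean shares of 2 cell types ranked alike, with Spearman's rho of 0.90 for astrocyte and microglia, 0.83 for astrocyte and monocyte and 0.93 for microglia and monocyte libraries. These values describe ranks over genes measured in the same libraries, and genes are not independent replicates.

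**Figure D2:**
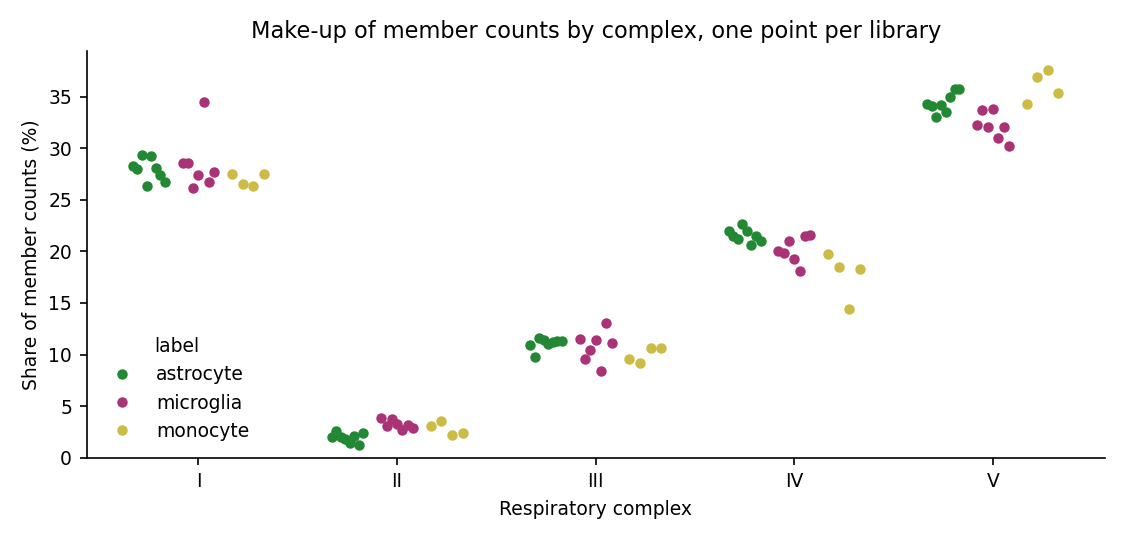
Share (%) of the counts of the 74 shared members taken by each respiratory complex, 1 point per library, coloured by the labelled cell type. Complexes I and V lead in every library, and complex II is lowest, at 1.28% to 3.90%.

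Within the set, most members overlapped between cell types. Between astrocyte and microglia libraries, 70 of 74 members overlapped in their share of the member counts, while Atp5g1 and Ndufa11 were higher in every astrocyte library and Cox7a2l and Sdhb lower. When all 2605 shared genes were set against the same member total, which is itself larger in the astrocyte libraries, 0.461% were higher and 17.2% lower. Between astrocyte and monocyte libraries 63 members overlapped, and of all genes 0.96% were higher and 26.1% lower. These counts describe the libraries and are not read against all genes, whose shares carry that tilt. Atp5g1, Cox4i1, Ndufa11, Ndufa4, Ndufb10 and Uqcr11 were higher and Atp5c1, Atp5f1, Atp5g2, Cox7a2l and Ndufa6 lower in the astrocyte libraries. Between microglia and monocytes all 74 overlapped, where 2.23% of all genes were higher and 1.54% lower. Cox7a2l held 0.523% to 0.749% of member counts where the label was astrocyte, 1.22% to 3.10% for microglia and 1.80% to 5.64% for monocytes. Ndufa11, a membrane subunit of complex I, held 1.63% to 2.65%, 0.442% to 1.46% and 0.698% to 1.57%. Sdhb held 0.335% to 0.784%, 0.831% to 1.79% and 0.313% to 1.49%. Cox7a2l and Ndufa11 thus moved in opposite directions relative to the rest of the set, and microglia and monocytes lay on the same side for both. Ndufa4, a small subunit of complex IV, held 2.54% to 4.02% of them in astrocyte libraries, with microglia at 0.825% to 2.68% and monocytes at 0.811% to 1.09%. Its counts were 0.822 times those of Cox4i1 over all astrocyte libraries, 0.350 times in microglia and 0.327 times in monocytes, although library ranges of that ratio overlapped (0.562 to 1.01, 0.172 to 0.647 and 0.243 to 0.567). Cox7a2l had 0.276 counts for each count of Cox7a2, the common subunit 7a of complex IV, in astrocyte libraries, against 1.01 in microglia and 1.04 in monocytes.

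**Figure D3:**
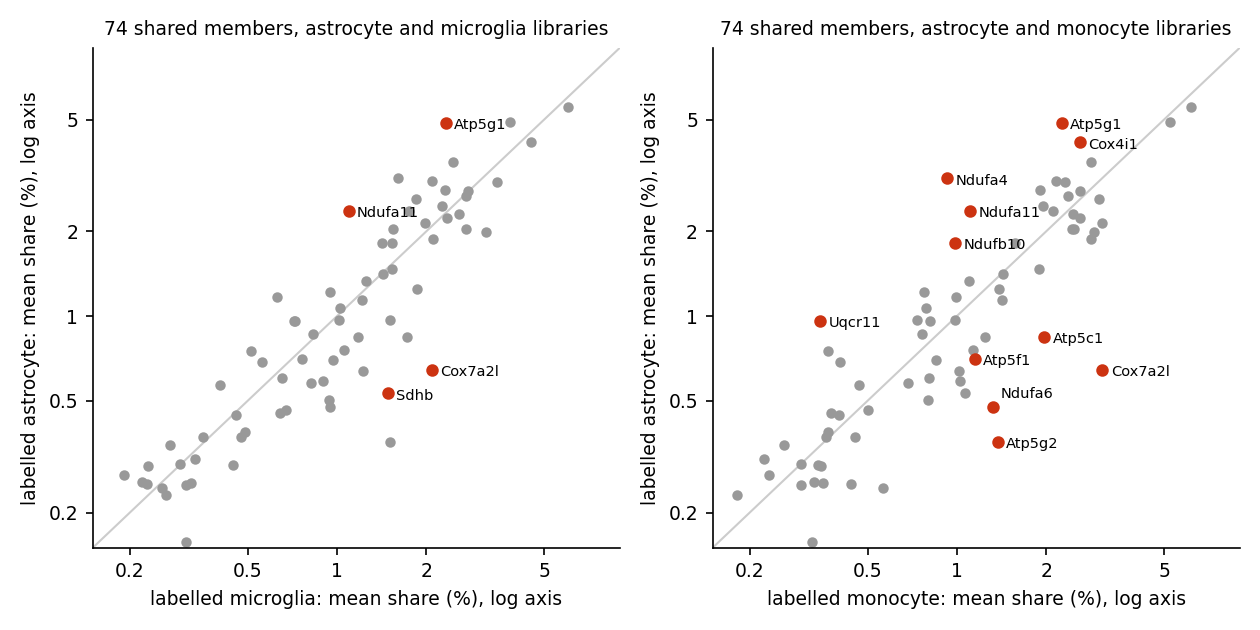
Mean share (%) of member counts for each of the 74 shared members, log axes, in libraries labelled astrocyte against microglia (left) and monocyte (right), with the line of equal shares. Red, named points are members whose libraries did not overlap, such as Cox7a2l below and Atp5g1 above the line in both panels.

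The ring of ATP synthase that turns with the proton flow is built from subunit c, and Atp5g1, Atp5g2 and Atp5g3 encode the same mature subunit c behind different import signals. Their promoters are shown because the counts of the 3 genes were divided differently between libraries of different labels. Each run holds 250 bases before and 30 bases after the transcript start in RefSeq (GRCm38.p6), read along the gene. The runs are chr11:96075602-96075881 for Atp5g1, chr15:102671018-102671297 for Atp5g2 and chr2:73911297-73911576 for Atp5g3, all on the minus strand. Atp5g2's run lies inside the annotated gene (chr15:102662864-102672352), since that transcript starts downstream of the outermost one. Capitals mark matches to the motif GCGCA, any base, GCGC of NRF1, a factor known for activating nuclear genes of respiration. Both strands were searched, and the match in Atp5g3 is on the other strand.
Atp5g1: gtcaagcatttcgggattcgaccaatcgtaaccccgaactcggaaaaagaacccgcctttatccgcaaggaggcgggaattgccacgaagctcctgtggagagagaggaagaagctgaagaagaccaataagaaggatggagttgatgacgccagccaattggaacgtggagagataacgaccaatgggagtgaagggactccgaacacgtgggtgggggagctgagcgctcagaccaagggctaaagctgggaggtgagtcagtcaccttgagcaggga
Atp5g2: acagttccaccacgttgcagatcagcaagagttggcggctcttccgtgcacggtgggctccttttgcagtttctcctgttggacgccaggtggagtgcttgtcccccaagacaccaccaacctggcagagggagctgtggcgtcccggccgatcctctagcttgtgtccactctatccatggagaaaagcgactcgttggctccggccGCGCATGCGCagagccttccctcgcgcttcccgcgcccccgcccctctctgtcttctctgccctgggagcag
Atp5g3: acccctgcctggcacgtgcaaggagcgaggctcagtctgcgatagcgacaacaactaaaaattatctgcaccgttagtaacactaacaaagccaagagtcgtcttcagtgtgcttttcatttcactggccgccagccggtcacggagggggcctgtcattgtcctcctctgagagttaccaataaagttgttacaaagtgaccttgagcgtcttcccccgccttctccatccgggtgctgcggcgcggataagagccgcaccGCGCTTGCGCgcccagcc
The match in Atp5g2 began at position -42 from the start and that in Atp5g3 at position 13 after it, and these letters were not in the Atp5g1 window. Over all members, 75 of 87 had a RefSeq promoter entry, and 17 of these (22.7%) held the NRF1 letters in the 280 bases, against 4.57% of all 27025 promoters. The ETS motif CCGGAAG was in 16 (21.3%), against 8.70%, and the GC box GGGCGG in 31 (41.3%), against 34.9%. CCAAT was in 33 (44.0%), among them Atp5g1 and Atp5g3, against 36.6%. The YY1 letters AAGATGGCG (1.10% of all) and the XBP1 letters TGACGTGG (0.592% of all) were in 0 of 75. Both strands were searched, and a match is a description of letters only.

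Atp5g1 supplied most of the subunit c transcripts in libraries labelled astrocyte, and Atp5g2 supplied a large part in both myeloid cell types. The share of Atp5g1 among the counts of the 3 genes was 84.4%, 87.2%, 75.9% and 74.1% under shScrmbl and 83.5%, 86.2%, 76.0% and 83.5% under shXbp1 in astrocyte libraries. In microglia it was 41.7%, 66.7%, 54.4% and 37.0% under shScrmbl and 66.7% and 64.4% under shXbp1 (replicate 1, with 8 counts in all, was left out), and in monocytes 56.0% and 47.3%, then 61.5% and 62.3%. Every astrocyte library lay above every myeloid library. The mean was 81.4% ± 5.17 (SD, n = 8), 55.1% ± 13.1 (n = 6) and 56.8% ± 6.90 (n = 4). The difference was 26.2 points from microglia (exact two-sided permutation test, p = 0.000666, adjusted p = 0.00599 over 18 comparisons) and 24.6 points from monocytes (exact permutation p = 0.00404, adjusted p = 0.0182). These are the smallest p the numbers of libraries allow.

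Atp5g2 showed the reverse order. Its share was 4.05% to 9.41% in the 8 astrocyte libraries, 20.8% to 54.2% in 6 microglia libraries and 23.1% to 45.2% in 4 monocyte libraries, so the astrocyte libraries again did not overlap the others. The mean shares of 5.95% ± 1.67 and 36.0% ± 13.1 differed by -30.1 points between astrocyte and microglia libraries (exact permutation p = 0.000666, adjusted p = 0.00599). The monocyte mean was 34.4% ± 9.08, and astrocyte minus monocyte gave -28.4 points (exact permutation p = 0.00404, adjusted p = 0.0182). Atp5g3 took 12.7% ± 4.98, 8.83% ± 4.25 and 8.87% ± 5.66, and its differences did not pass the test (exact permutation, adjusted p = 0.544 and 0.72 against microglia and monocytes). Microglia and monocytes differed by -1.64 points for Atp5g1 and 1.67 points for Atp5g2, less than the spread between libraries (exact permutation, adjusted p = 0.954 for each). Between viruses, none of the 9 differences in share passed (exact permutation, adjusted p from 0.72 to 1). The smallest p possible by the exact test was 0.0286 in astrocyte, 0.133 in microglia and 0.333 in monocyte libraries, so the myeloid tests could not pass. Adjusted over 18 comparisons, with the other p as they were, the astrocyte tests could not pass either. These 9 tests therefore could not decide whether the shares differed between viruses. In microglia, shXbp1 minus shScrmbl was 15.6 points for Atp5g1 and -12.0 for Atp5g2. In monocytes it was 10.2 points for Atp5g1, whose groups did not overlap, and -9.78 for Atp5g2, whose groups overlapped. In shScrmbl libraries alone the differences were as large, 30.5 and 28.8 points for Atp5g1 (exact permutation, adjusted p = 0.129 and 0.3). The smallest p possible there was 0.0286 with 4 libraries against 4 and 0.133 with 4 against 2. After adjustment these tests could not pass, whatever the shares. The 3′ end of Atp5g2 has near copies in the pseudogenes Gm10175 and Gm10231, so its counts are uncertain. Whether a mouse gave libraries of more than 1 cell type is not in the labels, and the choroid plexus markers above move with this difference too; their part in it was not tested.

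**Figure D4:**
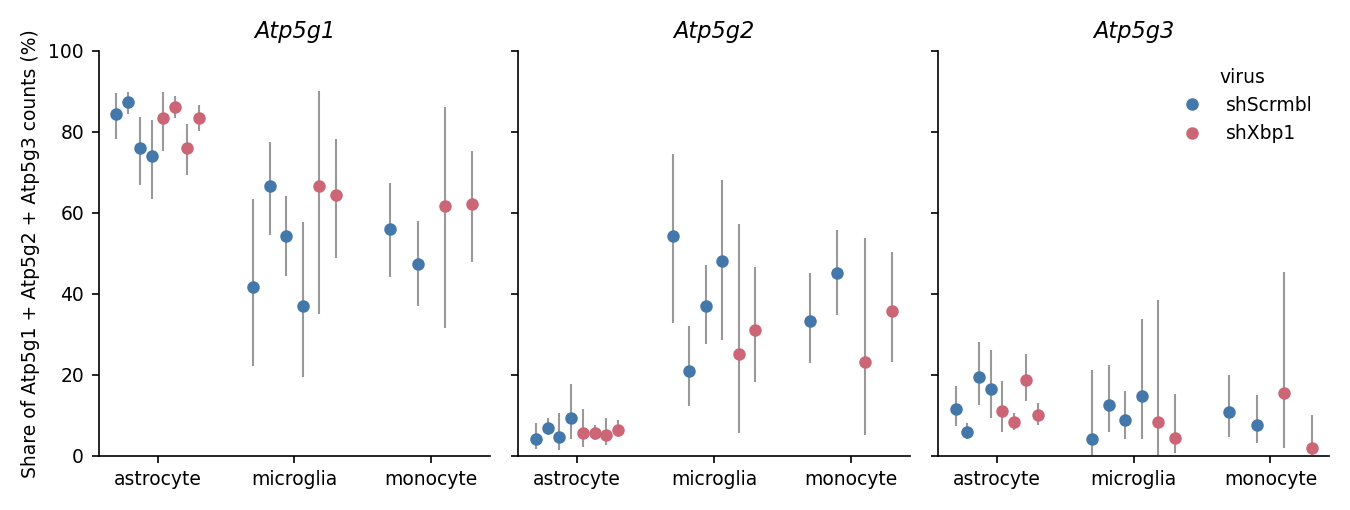
Share (%) of the summed counts of Atp5g1, Atp5g2 and Atp5g3 held by each gene, 1 point per library with its exact 95% binomial interval, coloured by virus. The Atp5g1 share lies at 74.1% to 87.2% in astrocyte libraries and at 37.0% to 66.7% in myeloid ones, and Atp5g2 is in the reverse order.

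Subunits known as muscle or testis isoforms of complex IV were listed in the astrocyte table alone. That table listed 6376 genes, against 3067 for microglia and 3776 for monocytes, and a missing gene is not a measured 0. Cox8b is the heart and muscle form of subunit 8 and Cox8a the common form. Their promoters are shown for the contrast of the pair (chr7:140900417-140900696 for Cox8b and chr19:7217587-7217866 for Cox8a, both minus strand, cut as above). Capitals mark the ETS motif, here as CTTCCGG on the other strand, which began at position -5 in Cox8a. None of the NRF1, ETS, YY1 or XBP1 letters were in the Cox8b window.
Cox8a: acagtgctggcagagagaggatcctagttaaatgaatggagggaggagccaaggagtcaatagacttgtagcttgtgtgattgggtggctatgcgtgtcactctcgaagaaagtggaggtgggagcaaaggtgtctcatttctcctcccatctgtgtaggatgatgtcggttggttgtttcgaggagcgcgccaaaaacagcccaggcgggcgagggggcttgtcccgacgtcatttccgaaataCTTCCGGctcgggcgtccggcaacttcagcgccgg
Cox8b: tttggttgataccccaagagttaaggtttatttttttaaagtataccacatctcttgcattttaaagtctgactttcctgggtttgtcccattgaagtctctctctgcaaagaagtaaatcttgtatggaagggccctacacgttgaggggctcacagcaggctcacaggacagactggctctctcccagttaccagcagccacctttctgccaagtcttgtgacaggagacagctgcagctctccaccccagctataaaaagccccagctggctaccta
Cox8b had a signal of 582, 312, 373 and 441 under shScrmbl and 358, 457, 427 and 677 under shXbp1. It made up 32.2%, 24.3%, 21.9% and 24.6% of the counts of Cox8a and Cox8b together under shScrmbl and 24.4%, 26.7%, 36.9% and 28.7% under shXbp1. Cox8b was thus detected in all 8 libraries with overlapping virus groups, and its log2 difference was 0.15 (SE 0.30, limma adjusted p = 0.977). Cox7a1, the heart and muscle form of subunit 7a, was 3.77% to 13.04% of the counts of Cox7a1 and Cox7a2, with 2 to 28 counts a library. Cox6b2, known from testis, was 2.63% to 14.3% of the counts of Cox6b1 and Cox6b2, with 1 to 32 counts a library. The same libraries held 14.2% to 26.7% of their counts in Ttr, and the part of other cells in these isoforms was not tested. Cox4i2, Cox6a2 and Ndufa4l2 match the symbol rule but were not listed in any table.

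Between the viruses, no respiratory gene passed the test in any cell type. The main test was limma on log2(signal + 50), adjusted by Benjamini-Hochberg over all genes of a table. It called 0 of 87 members in libraries labelled astrocyte (0% of all 6366 genes tested), 0 of 74 in microglia (0.0326% of 3066) and 0 of 77 in monocytes (0% of 3775). edgeR's quasi-likelihood test on recovered counts also called 0 members in each, beside 0.0157%, 0.391% and 0.0265% of all genes, and DESeq2 called 0. At an unadjusted p under 0.05, limma marked 1, 6 and 1 members, edgeR 1, 1 and 0, and DESeq2 1, 1 and 0. Among all 6366, 3066 and 3775 genes, edgeR marked 415, 168 and 178 and DESeq2 131, 62 and 21. At that limma threshold 5.03% of all genes were marked higher and 0.848% lower in the astrocyte table. All members passed the filter on low signal, so these counts cover every listed member. Differences below are shXbp1 minus shScrmbl on the log2(signal + 50) scale, which understates changes of low genes. In bulk libraries such as these, fewer cells of a type and less RNA per cell cannot be told apart.

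**Figure D5:**
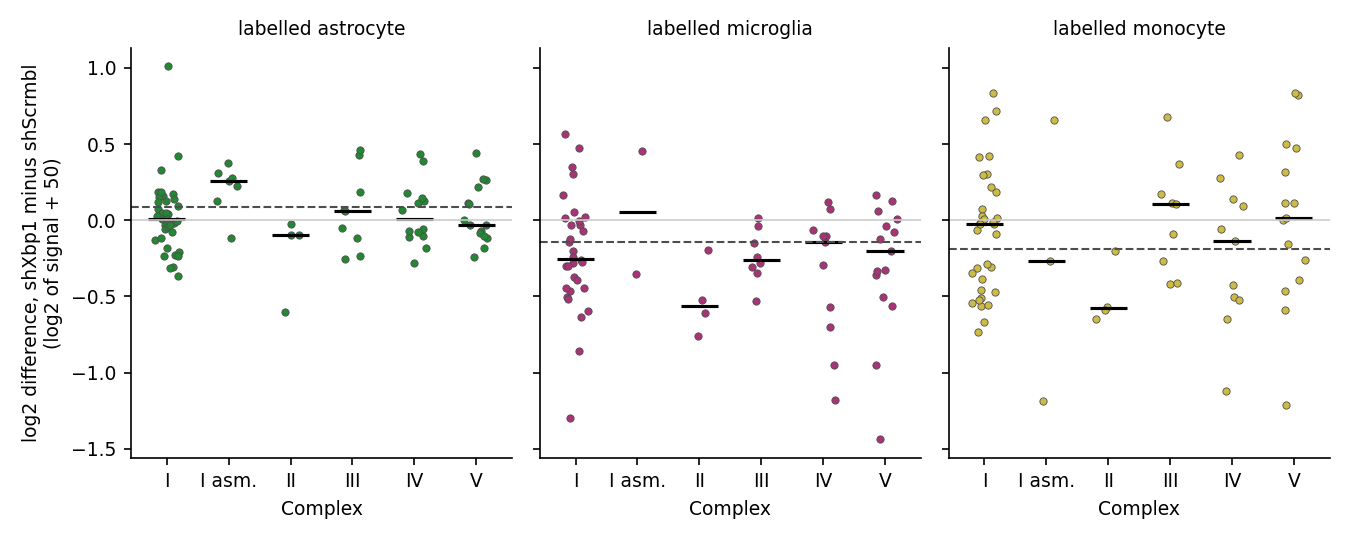
Difference between shXbp1 and shScrmbl on the log2(signal + 50) scale for each member, by complex (I asm., complex I assembly factors; Cycs and Cox7a2l are left out), in each table. Solid bars are medians of a complex and the dashed line is the median of all genes tested, at 0.09, -0.14 and -0.19. The complex medians lie within 0.6 of 0 in every panel, and the median of the 4 complex II genes lies below 0 in all 3. It also did by edgeR and DESeq2 and with equal totals or quantile normalization, which reuse the same libraries. By edgeR the astrocyte split of these genes was 2 to 2, and the monocyte median was -0.20 beside -0.17 over all genes. The shared sign was not tested.

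In libraries labelled astrocyte the members were evenly split, with 44 higher and 43 lower under shXbp1 and a median difference of 0.00, beside a median of 0.09 over all genes. With column totals made equal the split was 55 to 32, and by DESeq2 34 to 53, so it has no fixed direction. Sdha, the flavoprotein that oxidises succinate, had 241, 363, 373 and 303 under shScrmbl and 119, 371, 72.9 and 332 under shXbp1. Its low values were in shXbp1 replicates 1 and 3 only, and the difference of -0.61 (SE 0.34) had an adjusted p of 0.879 by limma. Atp5b, the catalytic beta subunit of ATP synthase, had 1043, 510, 772 and 800 against 853, 1083, 999 and 1301, with overlapping groups and a difference of 0.44 (SE 0.28).

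The remaining named members of the astrocyte table lay within 0.5 of 0. Those toward higher values were Uqcrfs1 (0.46), Ndufa10 (0.42), Cox5a (0.39) and Ndufb6 (0.33), and those toward lower values were Ndufb7 (-0.31), Ndufv2 (-0.31), Cox6a1 (-0.28), Uqcrc2 (-0.25) and Atp5d (-0.24). Their adjusted p was 0.892 or more by limma. Cyc1, the heme protein of complex III, differed by 0.43, and Cycs by -0.23. Complex II, with all 4 genes lower, had a median of -0.10, of which Sdhb (-0.10), Sdhc (-0.02) and Sdhd (-0.10) were near 0 and Sdhb and Sdhc turned to 0.01 and 0.04 by edgeR. The 95% interval of a member's difference ran, at the median over the 87 members, from -0.59 to 0.61. In microglia it ran from -1.21 to 0.72 and in monocytes from -1.30 to 1.11, so the precision was lower in the myeloid tables.

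In microglia more members lay lower than higher under shXbp1, 57 against 17, with a median of -0.25 beside -0.14 over all genes. By edgeR on counts the split was 50 lower to 24 higher and the medians were -0.17 and -0.09, and with equal column totals the split was 45 to 29. Complex medians were -0.25 (I), -0.57 (II), -0.26 (III), -0.14 (IV) and -0.20 (V). Atp5e, the small epsilon subunit in the stalk of ATP synthase, had a signal of 415, 669, 607 and 840 under shScrmbl and 76.0, 207 and 407 under shXbp1. All 3 shXbp1 libraries lay below all 4 shScrmbl libraries, from 21 counts against 147. Its difference was -1.44 (SE 0.42, 95% interval -2.27 to -0.60), with an unadjusted p of 0.00114 and an adjusted p of 0.301 by limma, and -1.19 with an adjusted p of 0.444 by edgeR. It was the member with the lowest p in this table.

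The other members marked at an unadjusted p under 0.05, all lower, were Ndufa7 (-1.30), Cox5a (-1.18), Cox7a2 (-0.95), Atp5g2 (-0.95) and Cycs (-0.79), where 5.64% of all genes were marked lower and 1.01% higher. Cycs, the electron carrier between complexes III and IV, had 571, 593, 691 and 480 against 228, 276 and 479. Cox5a, a subunit of complex IV, had 104, 139, 56.0 and 80.0 against 0, 0 and 47.9, from 21 and 2 counts. Atp5d, the delta subunit of ATP synthase, had 623, 505, 709 and 600 against 304, 414 and 479. With Atp5e these 3 were the members whose groups did not overlap, 4 lower and 0 higher, where 4.92% of all genes were lower and 2.32% higher. For all of them shXbp1 replicates 1 and 2, the shallowest libraries of the series (10039 and 13321 counts), held the lowest values.

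Ndufa7, an accessory subunit of complex I, had 363, 429, 243 and 360 against 0, 138 and 383, and Cox7a2 had 519, 782, 439 and 240 against 228, 69.0 and 503. In both, shXbp1 replicate 3 lay inside the shScrmbl range. Toward higher values stood Ndufa1 (0.56), Ndufaf7 (0.45), Ndufb9 (0.35), Ndufv3 (0.30), Ndufa6 (0.16) and Atp5k (0.16), with adjusted p of at least 0.863 by limma. Sdha (-0.76), Sdhb (-0.52), Sdhc (-0.20) and Sdhd (-0.61) all lay lower, except that Sdhc turned to 0.30 by edgeR, and none passed. Without shXbp1 replicate 1 the median of the members was -0.08 and Sdha turned to 0.09. Marker lists moved both ways in the microglia libraries. All 17 listed markers of monocytes and macrophages were lower (median -0.88). Their summed share was 0.738% to 2.44% under shScrmbl and 0.428% to 1.04% under shXbp1. Of neutrophil markers 6 of 7 were lower, and of lymphocyte markers 4 of 5. All 4 ependyma and choroid plexus, 2 oligodendrocyte lineage and 2 endothelial and mural markers were higher. Astrocyte markers were 4 higher and 2 lower, and microglia markers 9 higher and 11 lower. The part of these lists in the members' values was not tested.

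In monocytes, with 2 libraries against 2, the members were split, 34 higher and 43 lower, with a median of -0.06 beside -0.19 over all genes. By edgeR 48 were higher and 29 lower, and the medians were 0.14 and -0.17. The Sdh genes all lay lower (median -0.58), although Sdhc turned to 0.12 by edgeR, and none passed. Atp5a1, the alpha subunit of ATP synthase, had a signal of 307 and 246 under shScrmbl and 50.6 and 147 under shXbp1. Its groups did not overlap, and the difference of -1.21 (SE 0.57, 95% interval -2.41 to -0.01) had an unadjusted p of 0.0482 and an adjusted p of 0.883 by limma. It was the only member marked at that unadjusted threshold, where 4.9% of all genes were marked lower and 0.662% higher. Groups did not overlap for 10 members that were higher, where 9.85% of all genes were, and 6 that were lower, where 25% were. The 10 were Atp5b, Atp5c1, Atp5k, Atp5o, Ndufa11, Ndufa5, Ndufaf2, Ndufb9, Uqcrc1 and Uqcrh, and the 6 were Atp5a1, Cox4i1, Cox5b, Ndufaf7, Ndufb8 and Sdhd. The alpha and beta subunits, which pair in the head of the enzyme, thus stood on opposite sides, Atp5b having 266 and 401 against 859 and 440 (difference 0.82, SE 0.58, limma adjusted p = 0.949).

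The 2 shXbp1 monocyte libraries disagreed with each other for many members. Cox6a1, the common subunit 6a of complex IV, had 224 and 246 under shScrmbl and 0 and 293 under shXbp1. Sdhb had 279 and 300 against 50.6 and 419, and Atp5j, the coupling factor 6 subunit of ATP synthase, had 587 and 628 against 152 and 900. In all 3 the first shXbp1 library, with 15654 counts, lay below and the second above both controls. Atp5o, the stalk subunit that confers oligomycin sensitivity, had 489 and 464 against 657 and 1193, and Ndufa11 had 168 and 164 against 253 and 440. For these both shXbp1 libraries were higher, by 0.83 and 0.84, with limma adjusted p of 0.949 each. Ndufb9 (0.72), Ndufa5 (0.66), Cycs (0.57), Ndufb8 (-0.67) and Cox5a (-0.65) had adjusted p of at least 0.957 by limma. Leaving out the second shXbp1 library, limma called 17 of 77 members (1 higher and 16 lower) and 13.6% of all genes, and leaving out the first it called 1 member, Cox7b, and 4.74% of all genes. In both fits the lone shXbp1 sample is assumed to vary like the shScrmbl samples, and Cox7b was picked out after its value was seen.

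The summed shares of several marker lists also did not overlap between the viruses in the 4 monocyte libraries. With 2 libraries against 2 this is common: 9.85% of all genes were higher and 25% lower without overlap. The 17 listed monocyte and macrophage markers took 2.17% to 2.41% of counts under shScrmbl and 0.869% to 1.80% under shXbp1, with 7 higher and 10 lower (median -0.58). The 18 listed microglia markers took 1.89% to 2.22% and 1.56% to 1.82%, but 11 of them were higher and 7 lower (median 0.13). The 6 listed astrocyte markers took 1.03% to 1.98% and 0.594% to 0.844%, with 3 higher and 3 lower and Gfap and Aqp4 not listed. Apoe alone made up most of that share, with a signal of 10410.5 to 19886.8 under shScrmbl and 4398.51 to 9693.49 under shXbp1. The 8 neutrophil markers took 0.0754% to 0.0874% and 0.0177% to 0.0447%, with 2 higher and 6 lower. The 9 lymphocyte markers lay on the other side, with 0.258% to 0.393% under shScrmbl and 0.410% to 0.524% under shXbp1 (6 higher and 3 lower). Their part in the members' values was not tested.

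Replicate libraries of 1 group differed by more than counting alone gives. The ratio of the spread within groups to the counting spread had a median of 2.32 over the 84 members with a mean of at least 5 counts in the astrocyte table, beside 1.68 over 3440 genes. It was 1.97 over 65 members of the monocyte table, beside 1.53 over 1865 genes. In microglia, the median of 1.26 over 57 members lay by the 1.28 of 1370 genes.

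Other genes of mitochondria did not pass the test either. Of the respiratory chain genes that the symbol rule misses, 23, 17 and 18 were tested in astrocyte, microglia and monocyte tables, and 0 were called by limma or edgeR. They were higher in 16, 4 and 12 cases and lower in 7, 13 and 6. Assembly factors (21, 11 and 11 tested), the tricarboxylic acid cycle and pyruvate dehydrogenase (21, 9 and 13) and mitochondrial antioxidant and stress genes (13, 10 and 11) also had 0 calls by either tool. Of 16 regulators of mitochondrial biogenesis, 5, 0 and 2 were tested and 0 called. The cycle genes, which feed electrons to complexes I and II, were higher for 15 of 21 in the astrocyte table (median 0.23), where 3873 of all 6366 genes were higher (median 0.09). In microglia 7 of 9 were lower (median -0.21), where 1860 of 3066 genes were (median -0.14), but the median of these 9 turned to 0.02 by edgeR.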

How the data were processed

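For each cell type the authors deposited a table of normalized signal. BWA 0.7.10, limma 3.34.1 and mm10 stand in the submitters' processing notes without a role. The counter, annotation, scaling and filter are not given in the sources used here. Per the file values, each signal column is whole counts times a step (100% of 45664, 18589 and 13747 values above 0 were whole within 0.01), and these counts were recovered; reads and molecules cannot be told apart. The binomial intervals of shares cover counting error only. Intervals of the differences between viruses come from the limma fit, which uses the spread between libraries.

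The viruses were compared within each table by limma 3.58.1 (trend and robust) in R 4.3.3 on log2(signal + 50), with no covariate. Genes entered if the signal reached 1 in a number of libraries equal to the size of the smaller group, and p was adjusted by Benjamini-Hochberg over all genes (threshold 0.05). The step of 1 count was 4.22 to 76.0. edgeR 4.0.16 and DESeq2 1.42.0 on counts, other pseudocounts (1 and 10), filters, scalings, a replicate block, and leaving out each library were alternatives. Atp5g shares (libraries with at least 10 counts) used exact two-sided permutation tests in Python 3.11.15 with scipy 1.17.1. The limma and edgeR scripts were tested on simulated data, and the DESeq2 script was not.

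Genes were named by rule: members called by limma or edgeR, the 6 highest and 6 lowest log2 differences among members with a mean signal of at least 100, the most abundant of each complex, members whose groups do not overlap, isoform pairs, and Sdh genes, Cyc1 and Cycs. The members, lists and rules were chosen with earlier results of these data known. Other members named are those absent from a table or at an extreme. A member that the rule named is not reported here. Each library was taken as 1 mouse, since the labels give 1 nervous system per mouse. Promoters are RefSeq's (GRCm38.p6) and gene positions GENCODE M21's on GRCm38 (mm10). Of 87 members, 16 have another gene with at least 95% identity over 100 or more of the last 200 bases, Atp5g2 and Atp5l among them, and reads of such genes may be split: Atp5c1, Atp5h, Atp5k, Atp5o, Cox5b, Cox6a1, Cox7c, Ndufa12, Ndufab1, Ndufb11, Ndufb8, Ndufc1, Ndufs3 and Ndufs5 are the others.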

Additional observations from a re-analysis of the deposited data

Results flagged for a closer look

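Of 63 groups of 4 to 8 libraries examined, 2 held a library far from the others, where chance gives about 1 in 20. Ndufv2, a subunit of the NADH-oxidising arm of complex I, had a signal of 138 in shScrmbl replicate 4 of the libraries labelled astrocyte, while the other 3 shScrmbl libraries had 257 to 266. The low value rests on 5 counts in the shallowest astrocyte library (32842 counts), and the others on 13, 61 and 10 counts. In the same group complex V held 33.0% of the member counts in 1 library, against 34.1% to 34.2% in the other 3.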

How the results depend on the processing

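The count of called members was 0 in libraries labelled astrocyte and in microglia under every alternative run. In monocytes it was 0 except when an shXbp1 library was left out (0 to 17 over the 4 omissions). The replicate block (limma with the replicate number as a term) called 0 members in each table, with medians of 0.00, -0.24 and -0.06. Same-numbered libraries did not deviate together (correlations of -0.056 to 0.065, -0.163 in monocytes), and the block called 2, 20 and 0 of all genes; crossing the monocyte numbers, added after seeing the data, called 0 members and 4 genes. Over all genes, quantile normalization called 2, 13 and 0, and a pseudocount of 1 called 101 in monocytes.

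The microglia median was -0.40 with a pseudocount of 1 and -0.057 after quantile normalization, and -0.36 to -0.076 leaving out libraries; edgeR put Atp5k at -0.10. Leaving out each library gave, in microglia, Atp5k -0.22 to 0.38, Ndufaf7 -0.063 to 0.79, Ndufa6 -0.0053 to 0.38 and Sdha -1.28 to 0.093. In monocytes it gave a median of -0.52 to 0.40, Cox5a -1.60 to 0.30, Atp5j -1.70 to 0.53, Cox6a1 -2.51 to 0.27 and Sdhb -1.76 to 0.46. Members lower under shXbp1 numbered 28 to 57 (astrocyte; 28 without shXbp1 replicate 1) and 15 to 54 (monocyte; 15 without shXbp1 replicate 1), an omission added after seeing the data, as was that of the counts between cell types (40 to 45 and 43 to 49).

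The Atp5g1 and Atp5g2 differences between astrocyte and myeloid libraries passed in every omission. With shScrmbl libraries alone they were 30.5 and 28.8 points (Atp5g1) and -33.8 and -33.0 points (Atp5g2), with too few libraries for the test to pass. Small differences changed sign between omissions: by virus in astrocyte libraries -0.21 to 4.16 (Atp5g1), -1.32 to 0.47 (Atp5g2) and -3.79 to 0.74 points (Atp5g3), and for Atp5g3 in monocytes -7.21 to 6.29. Microglia minus monocytes gave -4.79 to 1.98 (Atp5g1), -2.09 to 5.27 (Atp5g2) and -2.36 to 2.14 (Atp5g3; 2.24 with at least 20 counts, 0.96 in shScrmbl libraries). The cause of these changes was not tested. Depth limits all of this: 1 count is 4.22 to 76.0 of signal.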
